A study of Mus musculus with 6 samples.

Results

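Glutathione transferases are enzymes that join the tripeptide glutathione to reactive, mostly electrophilic compounds. A list of 10 of their mouse genes was looked up by symbol in an RNA-seq table of 14003 genes, and 8 were found: Gsta4, Gstm1, Gstm2, Gstp1, Gsto1, Gstz1, Mgst1 and Mgst3. The other 2 listed genes, Gstk1 and Gstt1, were not analysed here. The list was drawn up with the difference between the study's groups known. The differences of these 8 genes are therefore given as descriptions, without a test.

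The cells were labelled as MC3T3-E1, an established preosteoblast line from mouse calvaria, and as wild-type in genotype. Sulfasalazine was given at 200 µM for 24 h to 3 samples, and 3 control samples received nothing. No vehicle is named for either group, and a single batch name covers all 6 samples. Whether the samples of a group came from separate cultures is not stated, so p-values below reflect the spread among these samples only, and that spread may be technical. Sulfasalazine is an anti-inflammatory drug that also blocks the cystine importer of the cell surface and is a known inhibitor of several glutathione transferases in the test tube.

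The soluble glutathione transferases fall into classes named by Greek letters. Alpha (Gsta), mu (Gstm), pi (Gstp) and theta (Gstt) enzymes mainly conjugate foreign compounds and products of lipid peroxidation, the omega enzyme Gsto1 uses a cysteine to reduce mixed disulfides, and the zeta enzyme Gstz1 is a step of tyrosine breakdown. The microsomal enzymes (Mgst) belong to an unrelated family of membrane proteins, of which some members make leukotrienes and prostaglandins. Many genes of these families are known targets of the transcription factor NRF2, which binds short sequences called antioxidant response elements and is held in check by KEAP1.

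Near-identical neighbours limit how well reads can be given to 1 gene, so stretches of the coding sequences of the pi and mu pairs are shown (GENCODE M21 transcripts, mouse build GRCm38). Gstp1 (chromosome 19, 4035407 to 4037985, minus strand) and Gstp2 (chromosome 19, 4040285 to 4046023, minus strand) were identical at 621 of 633 coding bases, or 98.1%. In coding bases 1 to 90 they differed at 6 bases, written in capitals.
Gstp1: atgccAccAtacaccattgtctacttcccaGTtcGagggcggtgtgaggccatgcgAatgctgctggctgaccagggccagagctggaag
Gstp2: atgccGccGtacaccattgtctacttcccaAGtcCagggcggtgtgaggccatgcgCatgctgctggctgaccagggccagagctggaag

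Of all words of 50 bases in the Gstp1 transcripts, 33.7% also occurred in other genes, mainly Gstp2 and the pseudogene Gstp-ps. The split of reads among these copies is therefore uncertain. The mu pair differed more. Gstm1 (chromosome 3, 108012255 to 108017973, minus strand) and Gstm2 (chromosome 3, 107981702 to 107986453, minus strand) were identical at 565 of 657 coding bases, or 86.0%. They are shown over coding bases 562 to 651, where 22 bases differed, again in capitals.
Gstm1: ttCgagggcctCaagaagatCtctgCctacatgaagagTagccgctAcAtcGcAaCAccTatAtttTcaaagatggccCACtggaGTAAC
Gstm2: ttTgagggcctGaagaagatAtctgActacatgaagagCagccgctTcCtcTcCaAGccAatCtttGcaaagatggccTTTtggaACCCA

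Of the 50-base words of Gstm1, 18.9% occurred in other genes, against 5.65% for Gstm2. None of the words of Gsta4, Gsto1, Mgst1 or Mgst3 did. Gstz1 shares 12.2% of its exonic bases with other genes, among them Pomt2 on the opposite strand, and no source used here says whether the counting used strand. Of the further transferases described below, Ltc4s (26.4%), Gstm5 (13.9%), Gstt3 (13.6%) and Alox5ap (13.3%) also share exonic bases with other genes. The overlap of Gstt3 is on the same strand.

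Promoters from RefSeq (GRCm38.p6, 250 bases before to 50 after each start) were found for 7 of the 8 genes; Gsta4 had no entry. They were searched on both strands for the antioxidant response element core TGACNNNGC, the dioxin response core GCGTG and TGANTCAGC, a small-MAF/AP-1-like word that was added after the sequences were seen and that overlaps the first motif where its N is C. TGACNNNGC was in 1 of the 7 (Mgst1), TGANTCAGC in 1 (Gstp1) and GCGTG in 3 (Gstm1, Gstp1 and Mgst3). Among all 32851 promoters of this length, 12.4% held TGACNNNGC, 1.19% held TGANTCAGC and 32.4% held GCGTG. These shares are per promoter, while the counts are per gene with a match in any of its promoters, so their units differ. The matches are descriptions of letters, with the match in capitals below. Gstp1 and Gstp2 held the same 30 bases, at chr19:4037967-4037996 and chr19:4042291-4042320 on the minus strand. Among 14 further transferases with a promoter entry, TGACNNNGC was in 3, Gsta3, Gstm5 and Gstm7, of which Gsta3 and Gstm7 stayed below 1 FPKM in every sample, and TGANTCAGC in 1, Gstp2. The Mgst1 stretch is at chr6:138140461-138140490 and that of Gstm5, another mu gene, at chr3:107895802-107895831, both on the plus strand.
Gstp1: tccaacgtgtTGAGTCAGCatccggggcgg
Gstp2: tccaacgtgtTGAGTCAGCatccggggcgg
Mgst1: gcggggcttgGCACGGTCAggaggcggggt
Gstm5: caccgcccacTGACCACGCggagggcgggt

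The libraries held 15980935 to 21579133 reads on genes, a number recovered from the deposited values. The groups separated along the first principal component, with 88.6% of the variance. Control replicate 3 scored -42.6 on it, against -65.3 and -63.2 for the other controls. Of 15 osteoblast markers, 9 were in the table and 5 of these averaged below 1 FPKM (fragments scaled to gene length and to the mapped fragments of the library), among them Col1a1 and Sp7, while Runx2, Spp1 and Sparc were at or above 10. Their sum was 1553 to 2144 in controls and 891 to 1113 with sulfasalazine, most of it Spp1. Of 9 hepatocyte markers, genes of a tissue rich in glutathione transferases, 4 were in the table; their sum was 0.0806 to 0.604 in controls and 1.08 to 12.7 with sulfasalazine, where Ahsg alone reached 12.6 in replicate 3. Of 11 epithelial markers, 9 were in the table and 5 of these likewise averaged below 1 FPKM (Krt5, Krt14, Cldn3, Cldn7 and Esrp1), while Krt8, Krt18 and Krt19 were at or above 10; the list sum was 1294 to 1453 in controls and 1885 to 2093 with sulfasalazine. Col1a2, Alpl, Ibsp, Postn, Dmp1 and Dlx5 were the osteoblast markers not in the table. Most listed osteoblast markers were thus low or missing, while Krt8, Krt18 and Krt19 averaged 287, 708 and 350 FPKM in controls. Whether the cells match their label was not tested, nor was the part of these markers in the results below.

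Of the 8 genes, 7 were higher and 1, Gsto1, was lower in every sulfasalazine sample than in any control. A limma model of log2(FPKM + 1) over the 10338 genes that reached 1 FPKM in 3 or more samples gave the log2 fold changes below. At an adjusted p of 0.05 it called 37.2% of all genes tested higher and 29.3% lower, 66.5% in all. Its calls for the 8 genes are not given. Under median-of-ratios scaling 3422 genes were higher and 3533 lower, against 3846 and 3032 here, so the excess of higher calls over all genes turned. Groups did not overlap for 71.4% of them, 40.3% with sulfasalazine higher and 31.1% with it lower. Since the genes were chosen with this contrast known, nothing is read from their counts. All 8 passed the filter on low values, but Gsta4, Gstm1 and Gstm2 did so through the sulfasalazine samples and not through the controls alone. In bulk RNA, a change in the number of cells that express a gene and a change in RNA per cell cannot be told apart.

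Gsta4, the alpha-class enzyme best known for clearing 4-hydroxynonenal, a product of lipid peroxidation, lies on chromosome 9 (78182774 to 78209349, plus strand). The 3 controls had 0.639, 2.18 and 1.28 FPKM, in replicate order, and the sulfasalazine samples 154.8, 157.1 and 133.5 FPKM. It was thus barely detected without the drug and abundant with it. The mean was 1.37 ± 0.775 FPKM (SD, n = 3) in controls and 148.5 ± 13.02 FPKM (SD, n = 3) with sulfasalazine, a log2 fold change of 6.03 (SE 0.23). No gene of the 10338 tested had a larger positive log2 fold change on this scale. The controls rested on 11, 40 and 18 reads, and the treated samples on 2947, 2760 and 2264, so the control level carries most of the counting error. Since 1 FPKM was added before taking logs, the fold change of genes this low in controls is understated. The authors' deposited table gives 6.64 on its own log2 scale.

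The mu-class pair Gstm1 and Gstm2, enzymes that conjugate epoxides and quinones among other substrates, started from the same level. Gstm1 stood at 0.556, 1.51 and 2.31 FPKM in controls and at 84.9, 92.9 and 86.8 FPKM with sulfasalazine. Gstm2 stood at 0.599, 1.35 and 2.196 FPKM in controls and at 27.8, 34.1 and 43.3 FPKM with sulfasalazine. In both genes control replicate 1 was the lowest and control replicate 3 the highest, and no treated sample came near a control. Gstm1 had a mean of 1.46 ± 0.878 FPKM (SD, n = 3) in controls and 88.2 ± 4.17 FPKM (SD, n = 3) with the drug, a log2 fold change of 5.25 (SE 0.26). Gstm2 had a mean of 1.38 ± 0.799 FPKM in controls and 35.1 ± 7.80 FPKM with the drug (SD, n = 3), a log2 fold change of 3.96 (SE 0.28). The ratio of Gstm1 to Gstm2 was 0.928, 1.12 and 1.05 in the controls and 3.06, 2.72 and 2.01 in the treated samples. The pair was level without the drug, and Gstm1 led with it by a margin that differed among the treated samples. With 18.9% of the Gstm1 words shared with other genes, the ratio depends on how shared reads were assigned.

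The pi-class gene Gstp1, whose product is the main glutathione transferase of many cultured cells, was already abundant in controls, at 187, 242 and 336 FPKM. With sulfasalazine it stood at 1408, 1528 and 1117 FPKM, so that the lowest treated sample was still above the highest control. The mean was 255 ± 75.7 FPKM (SD, n = 3) in controls and 1351 ± 211 FPKM (SD, n = 3) with the drug, a log2 fold change of 2.43 (SE 0.22). Only 48 of the 14003 genes had a higher mean with sulfasalazine, against 483 in controls. Its near copy Gstp2 had 0, 0 and 0.123 FPKM in controls and 0.818, 0.788 and 1.33 FPKM with the drug. Gstp2 thus held a very small part of the reads given to the pi locus, with the uncertainty described above.

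Gsto1 went the other way. This omega-class enzyme, known for reducing dehydroascorbate and for removing glutathione from proteins, lies on chromosome 19 (47854970 to 47864790, plus strand). It stood at 959, 1010 and 1033 FPKM in controls and at 588, 573 and 441 FPKM with sulfasalazine, with no overlap. The mean was 1001 ± 37.5 FPKM (SD, n = 3) in controls and 534 ± 80.8 FPKM (SD, n = 3) with the drug, a log2 fold change of -0.92 (SE 0.14). In controls 78 genes of the table had a higher mean, and with the drug 176 did. The authors' deposited table lists its log2 fold change as -1.0 and does not mark the gene as changed. That mark does not rest on the authors' adjusted p alone. It is also missing for Gsto2 (-0.84, authors' adjusted p = 0.0057), while Ptges is marked up (1.365, authors' adjusted p = 0.024).

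Gstz1, the maleylacetoacetate isomerase of tyrosine breakdown, moved least. It stood at 20.3, 24.2 and 27.9 FPKM in controls and at 34.0, 31.6 and 28.0 FPKM with sulfasalazine. The highest control and the lowest treated sample, both replicate 3, nearly touched. The mean was 24.2 ± 3.83 FPKM (SD, n = 3) in controls and 31.2 ± 3.06 FPKM (SD, n = 3) with the drug, a log2 fold change of 0.36 (SE 0.15). That fold change was 0.47 without control replicate 3 and 0.24 under median-of-ratios scaling. The overlap of Gstz1 exons with Pomt2 applies to all its values.

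The membrane-bound Mgst1, an abundant protein of the endoplasmic reticulum and outer mitochondrial membrane with transferase and peroxidase activity, lies on chromosome 6 (138140316 to 138156755, plus strand). Its control SD was the smallest of the 8 genes relative to the mean. The controls had 5.80, 6.10 and 5.84 FPKM, and the sulfasalazine samples 142.8, 149.8 and 128.7 FPKM. The mean was 5.91 ± 0.165 FPKM (SD, n = 3) in controls and 140.4 ± 10.8 FPKM (SD, n = 3) with the drug, a log2 fold change of 4.35 (SE 0.11). Mgst3, which reduces lipid hydroperoxides, lies on chromosome 1 (167371966 to 167393841, minus strand). It stood at 5.51, 8.64 and 6.51 FPKM in controls and at 62.6, 63.1 and 49.7 FPKM with the drug. The mean was 6.89 ± 1.60 FPKM (SD, n = 3) and 58.5 ± 7.64 FPKM (SD, n = 3), a log2 fold change of 2.93 (SE 0.18). The ratio of Mgst1 to Mgst3 was 1.05, 0.707 and 0.897 in the controls and 2.28, 2.37 and 2.59 in the treated samples, so the microsomal pair was level without the drug and Mgst1 led with it.

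**Figure D1:**
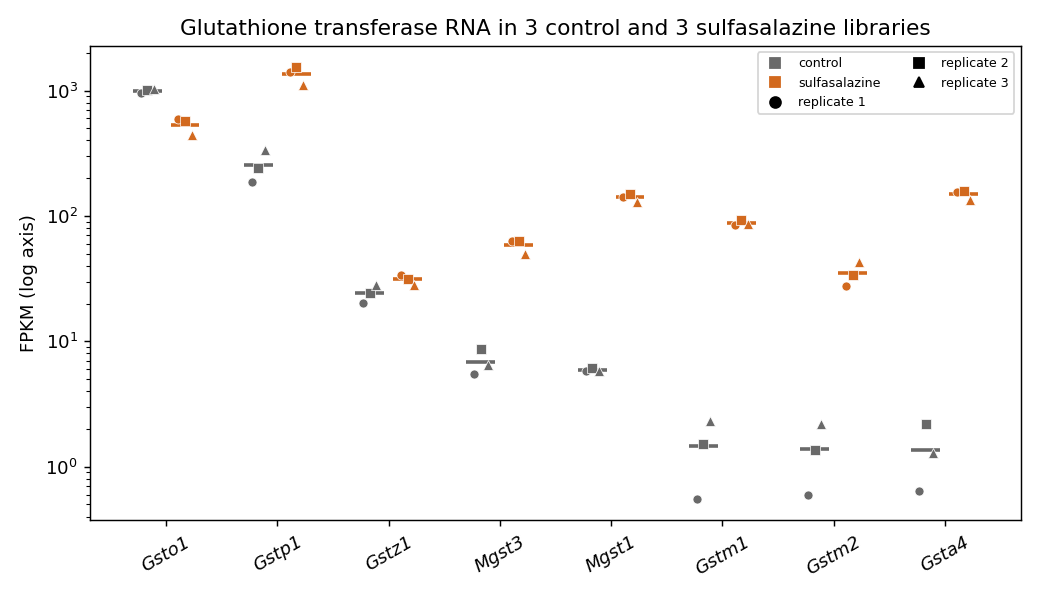
FPKM of the 8 glutathione transferase genes in each of the 3 control and 3 sulfasalazine samples, on a log axis, 1 point per sample. Gsta4, Gstm1, Gstm2, Mgst1 and Mgst3 lie far apart between the groups, Gsto1 is the 1 gene lower with sulfasalazine, and the Gstz1 groups nearly touch.

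FPKM is scaled to gene length, so levels can be set side by side. In controls the order was Gsto1, Gstp1, Gstz1, Mgst3, Mgst1, Gstm1, Gstm2 and Gsta4, where Mgst3 and Mgst1 overlapped and the last 3 could not be told apart. With sulfasalazine it was Gstp1, Gsto1, Gsta4, Mgst1, Gstm1, Mgst3, Gstm2 and Gstz1, where Gsta4 overlapped Mgst1 and Gstm2 overlapped Gstz1. Of the summed FPKM of the 8 genes, Gsto1 held 81.3%, 78.0% and 73.0% in the controls and 23.5%, 21.8% and 21.8% in the treated samples. Gstp1 held 15.8%, 18.6% and 23.8% in the controls and 56.2%, 58.1% and 55.1% in the treated samples. The leading transcript of the family was therefore the omega gene in each control and the pi gene in each treated sample, and the Gstp1 to Gsto1 ratio went from 0.195, 0.239 and 0.326 to 2.39, 2.67 and 2.53. Gsta4 and Mgst1, at 0.104% ± 0.0584 and 0.459% ± 0.0409 of the sum in controls, reached 6.25% ± 0.308 and 5.92% ± 0.371 with the drug (SD, n = 3). The sum itself was 1180, 1296 and 1415 FPKM in controls and 2503, 2629 and 2028 FPKM with sulfasalazine. These shares are of RNA and do not give amounts of enzyme.

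**Figure D2:**
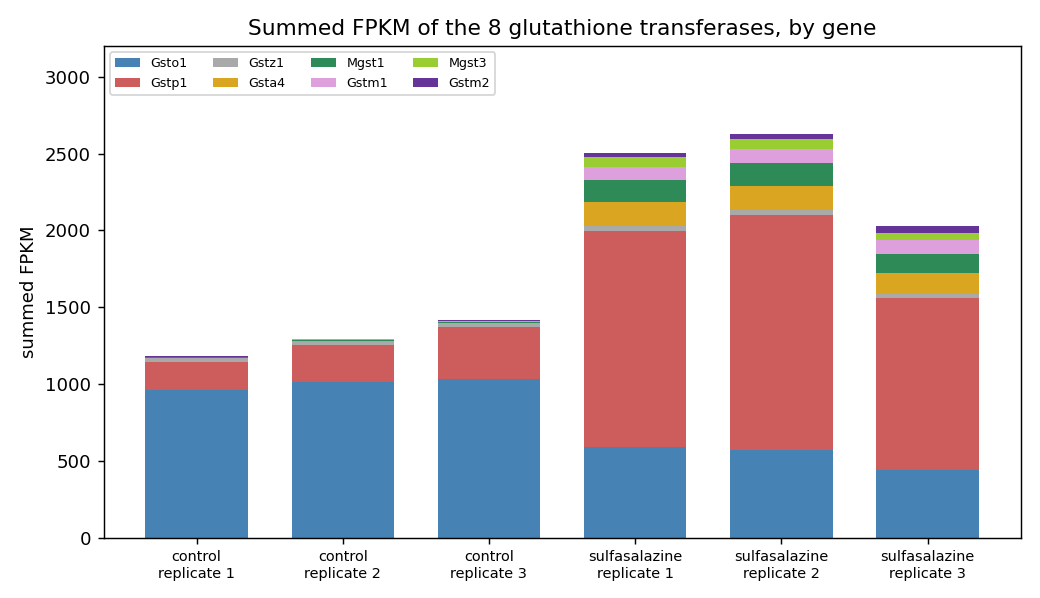
Summed FPKM of the 8 genes in each sample, as stacked bars from 0 split by gene. Gsto1 fills most of each control bar, and Gstp1 the largest part of each treated bar.

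The genes whose pattern over the 6 samples lay nearest to Gsta4, by Euclidean distance of gene-centred log2(FPKM + 1) values, were the stearoyl-CoA desaturase Scd2 (distance 0.971), the BCL2-family gene Bmf (1.13) and the creatine synthesis gene Gamt (1.21). Scd2 went from 29.0 ± 9.22 to 1645 ± 213 FPKM (SD, n = 3). Nearest to Gstm1 were the biliverdin reductase Blvrb (0.541), Mettl7a1 (0.743) and the cytochrome b5 gene Cyb5a (0.772). Blvrb went from 5.82 ± 1.38 to 206 ± 2.05 FPKM (SD, n = 3). The distances rest on 6 samples in 2 groups that lie far apart.

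Outside the 8 genes, 21 further genes of the transferase classes and of the membrane family were listed, 16 were in the table and 7 had enough signal to be tested. Of the 7, 5 rose, 1 fell and 1 did not pass, with a median log2 fold change of 1.60 beside 0.08 over all genes tested. Of all genes tested, 37.2% were called higher and 29.3% lower. Gstt3 and Alox5ap, both among the 5, had no control at 1 FPKM and passed the filter through the sulfasalazine samples alone, so a difference was built into their being tested and no p is given for them. Of the other 5 genes, 3 rose and 1 fell, with a median of 0.88. That median is the value of Ptges, 1 of the 3 risers. Ptges also passed the filter through the sulfasalazine samples and not through the controls alone. Mgst2, a microsomal enzyme that also makes leukotriene C4, rose from 13.9, 15.4 and 17.8 FPKM to 108.5, 131 and 95.8 FPKM (limma adjusted p = 6.6e-06, log2 fold change 2.75 with an SE of 0.15). The theta gene Gstt3 had 0.0456, 0.0857 and 0.223 FPKM in controls (1, 2 and 4 reads) and 5.78, 5.23 and 5.28 FPKM with the drug. Its log2 fold change was 2.53 with an SE of 0.14, but 4.75 with a pseudocount of 0.1 FPKM and 5.51 in a voom fit of the recovered reads, so its size depends on the pseudocount. Alox5ap, the protein that presents arachidonic acid to 5-lipoxygenase, had 0, 0.0732 and 0 FPKM in controls (1 read in all) and 2.75, 1.53 and 2.14 FPKM with the drug. Its log2 fold change was 1.60 with an SE of 0.17, but 4.18 with a pseudocount of 0.1 FPKM and 5.18 by voom. For Mgst2 every treated sample was above every control, which also held for 40.3% of all genes tested. The same held for Gstt3 and Alox5ap, but there the filter had fixed it in advance.

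Gstm5, in the mu cluster on chromosome 3 (107895821 to 107898686, plus strand), rose from 1.39, 2.21 and 3.40 FPKM to 8.74, 9.00 and 12.4 FPKM (limma adjusted p = 0.00039, log2 fold change 1.76 with an SE of 0.25). It shared with Gstm1 and Gstm2 the order of the controls, replicate 1 lowest and replicate 3 highest. Ptges, the inducible prostaglandin E synthase, was called higher (limma adjusted p = 0.027, log2 fold change 0.88 with an SE of 0.29), but its groups overlapped, at 1.61, 0.281 and 0.686 against 2.71, 2.90 and 1.41 FPKM. The Ptges call was lost without control replicate 2, without control replicate 3, without sulfasalazine replicate 1 and without sulfasalazine replicate 2, with adjusted p between 0.052 and 0.1, and under quantile normalization at 0.16.

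Gsto2, the omega gene next to Gsto1 on chromosome 19 (47865534 to 47886324, plus strand), fell from 7.80, 7.68 and 7.15 FPKM to 4.56, 5.03 and 3.91 FPKM (limma adjusted p = 0.0056, log2 fold change -0.64 with an SE of 0.15). The ratio of Gsto1 to Gsto2 was 123, 131.5 and 144.5 in controls and 129.1, 113.9 and 112.9 with the drug, and the ranges of the groups overlapped. Ltc4s, leukotriene C4 synthase, had 12.5, 12.4 and 9.24 FPKM in controls and 12.9, 13.9 and 7.92 FPKM with sulfasalazine, with overlapping groups (limma adjusted p = 0.99).

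The other 9 genes in the table were too low to be tested. Gsta1, next to Gsta4, was listed at 0 in all 3 controls and at 0.464, 0.377 and 0.521 FPKM with sulfasalazine. Gsta2, a further alpha gene of that cluster, had 0.0733, 0.138 and 0.0895 FPKM in controls and 0.133, 0.574 and 1.49 FPKM with the drug. Of the 50-base words of Gsta1 and Gsta2, 90.5% and 49.8% occur in other genes, among them each other, against none for Gsta4, so their low values depend on how shared reads were handled. Gstp3 had 0.0929, 0 and 0 FPKM in controls and 0.504, 1.27 and 0.283 FPKM with sulfasalazine. Gsta3, Gstm6, Gstm7, Gstt2 and Hpgds stayed below 1 FPKM in every sample. The authors' deposited table marks Gsta1, Gsta2, Gstp2 and Gstp3 as up, with adjusted p of 3.9e-05, 0.01, 9.5e-05 and 0.0011, where 18.8% of its genes are marked up and 16.1% down.

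**Figure D3:**
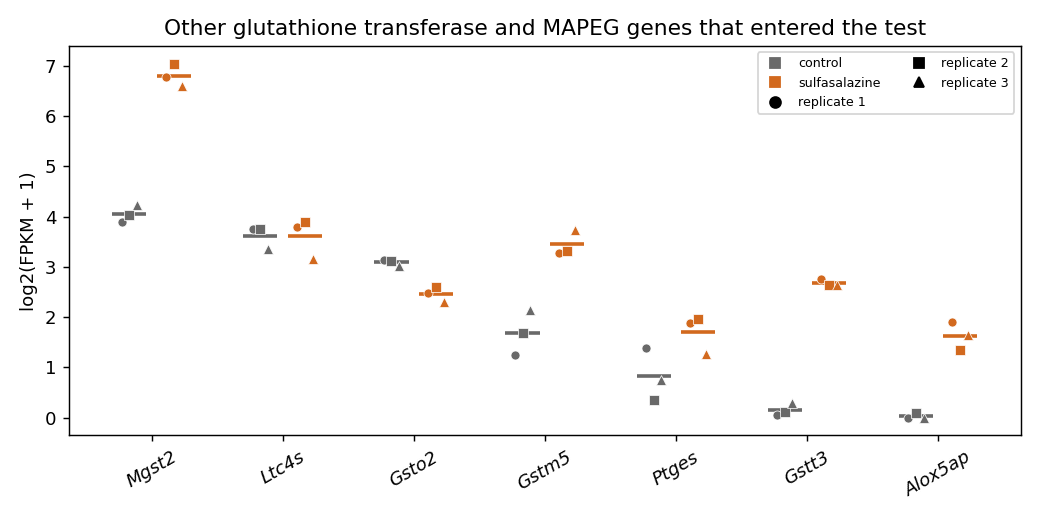
log2(FPKM + 1) of the other glutathione transferase genes in each of the 3 control and 3 sulfasalazine samples, 1 point per sample. Mgst2, Gstt3, Gstm5 and Alox5ap are higher with sulfasalazine without overlap, which the filter fixed in advance for Gstt3 and Alox5ap. Gsto2 is lower, and Ltc4s overlaps.

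Some proteins carry a transferase-like fold without belonging to the detoxifying classes. Of 5 such genes tested, beside 37.2% of all genes higher and 29.3% lower, none rose, and 1, Gstcd, fell from 17.1 ± 1.42 to 10.7 ± 0.652 FPKM (SD, n = 3; limma adjusted p = 0.0042, log2 fold change -0.62 with an SE of 0.14). The translation factor subunit Eef1g, named after its values were seen, had 1600 ± 319 FPKM in controls and 1579 ± 182 FPKM with the drug (SD, n = 3).

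Of 12 tested genes of glutathione supply, 7 rose and 5 fell, beside 37.2% of all genes higher and 29.3% lower, with a median log2 fold change of 0.46. Gclm and Gclc, the subunits of the rate-limiting enzyme of glutathione synthesis, rose. Gclm went from 15.8, 18.8 and 16.7 FPKM to 176, 208 and 178 FPKM (limma adjusted p = 1.8e-06, log2 fold change 3.38 with an SE of 0.12). Gclc went from 37.9, 34.1 and 28.2 FPKM to 234, 246 and 169 FPKM (limma adjusted p = 1.1e-05, log2 fold change 2.65 with an SE of 0.17). The cystine importer subunit Slc7a11 and the glutathione reductase Gsr also rose, by log2 fold changes of 2.21 (SE 0.44) and 1.93 (SE 0.14). Slc7a11, and likewise Ggt1, passed the filter on low values through the sulfasalazine samples and not through the controls alone. The 5 that fell (names chosen after seeing the values) were the importer partner Slc3a2, the glutathione-degrading Chac1 and Chac2, and Ggct and Ggt7. The calls of Ggct and Ggt7 were lost in 4 of the 6 fits that left out 1 sample, namely those without control replicate 1, control replicate 3, sulfasalazine replicate 1 or sulfasalazine replicate 2, so that 3 genes remained called lower. Ggt1, among the 7 that rose, was at the threshold (limma adjusted p = 0.048) and lost its call in every fit that left out 1 sample.

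Export and breakdown of conjugates gave 9 of 11 tested genes risen, none fallen and a median log2 fold change of 1.12. Among all genes tested, 37.2% were called higher and 29.3% lower, and the median was 0.08. The conjugate pump Abcc3 rose from 0.880, 1.11 and 1.36 FPKM to 18.7, 19.7 and 18.4 FPKM (limma adjusted p = 4.1e-06, log2 fold change 3.24 with an SE of 0.15). It passed the filter on low values through the sulfasalazine samples and not through the controls alone. The pump Abcc5 and the cysteine conjugate lyase Kyat1 rose by log2 fold changes of 1.85 (SE 0.13) and 1.35 (SE 0.14).

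Glutathione peroxidases and glutaredoxins, which use glutathione as a reductant, gave 5 of 8 tested genes risen, none fallen and a median of 0.46. Over all genes, 37.2% were higher and 29.3% lower. Glrx rose from 1.22, 0.811 and 3.56 FPKM to 20.5, 21.4 and 17.9 FPKM (limma adjusted p = 9.6e-05, log2 fold change 2.99 with an SE of 0.32). Like Abcc3, Glrx passed the filter through the sulfasalazine samples and not through the controls alone. Gpx1 rose from 219 ± 20.8 to 414 ± 38.6 FPKM (SD, n = 3; limma adjusted p = 0.00028). The smaller calls of Gpx4 (log2 fold change 0.51, limma adjusted p = 0.045), Glrx2 (0.48, limma adjusted p = 0.014) and, named after its values were seen, the peroxiredoxin Prdx6 (0.44, limma adjusted p = 0.014) were not stable. All 3 were lost without sulfasalazine replicate 1 and without sulfasalazine replicate 2. Without sulfasalazine replicate 1, and likewise without sulfasalazine replicate 2, 2 of the 8 genes were called higher.

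Enzymes that clear reactive aldehydes and carbonyls, substrates shared with Gsta4, gave 14 of 18 tested genes risen, 1 fallen and a median of 1.14. Over all genes, 37.2% were higher and 29.3% lower. Akr1b7, Cbr3 and Ptgr1 reached 1 FPKM in 1 group alone. Of the other 15 genes, 12 rose and 0 fell, and their median was also 1.14. Aldh3a1, an aldehyde dehydrogenase of medium-chain aldehydes, had 20.6, 18.2 and 6.44 FPKM in controls and 279, 326 and 99.6 FPKM with the drug (limma adjusted p = 0.00032, log2 fold change 3.85 with an SE of 0.52). Replicate 3 was the lowest in both groups. The aldo-keto reductase Akr7a5 and Aldh9a1 rose by log2 fold changes of 2.97 (SE 0.20) and 2.25 (SE 0.20). The alkenal reductase Ptgr1 had a log2 fold change of 2.11 (SE 0.16), or 3.09 with a pseudocount of 0.1 FPKM. The 1 that fell, named after its value was seen, was Akr1b7, at 3.97 ± 0.844 FPKM in controls and 0.256 ± 0.158 FPKM with the drug (SD, n = 3). In tyrosine breakdown, the pathway of Gstz1, Fah, the enzyme of the next step, had 0.749 ± 0.206 FPKM in controls and 4.86 ± 0.353 FPKM with the drug (SD, n = 3), a log2 fold change of 1.75 (SE 0.15), or 2.57 with a pseudocount of 0.1 FPKM. It too was tested through the sulfasalazine samples alone. Apart from Fah, the only tested gene of that list was Fahd1, a hydrolase related to Fah. Fahd1 had a log2 fold change of 1.26 (SE 0.19) and was called higher, as were 37.2% of all genes. Nothing is read for the pathway from these 2 genes.

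Transcripts of the regulators of these genes were more often lower: of 11 tested, 2 rose and 7 fell, with a median of -0.71. Over all genes, 37.2% were higher and 29.3% lower. Nfe2l2, which encodes NRF2, fell from 367, 335 and 276 FPKM to 150, 152 and 121 FPKM (limma adjusted p = 0.00017, log2 fold change -1.20 with an SE of 0.14). Keap1, its inhibitor, rose from 13.7, 13.5 and 15.6 FPKM to 43.0, 40.1 and 43.2 FPKM (limma adjusted p = 2.5e-05, log2 fold change 1.50 with an SE of 0.12). NRF2 is controlled mainly through the stability of its protein, which was not measured. Transcripts of the small MAF proteins, which pair with NRF2 on DNA, fell to different extents: Maff from 328 ± 49.8 to 42.9 ± 4.20 FPKM (SD, n = 3; limma adjusted p = 4.1e-06, log2 fold change -2.90 with an SE of 0.14) and Mafk by 1.83 on the log2 scale (SE 0.18). Mafg, named after its values were seen and the most abundant of them with the drug, had 178 ± 19.4 and 137 ± 6.58 FPKM (SD, n = 3; log2 fold change -0.37, limma adjusted p = 0.02), a call lost without control replicate 1 or 2 and without sulfasalazine replicate 1 or 2. Bach1, a repressor that competes for the same sites, had 6.59, 6.12 and 2.55 FPKM in controls and 5.28, 5.03 and 7.09 FPKM with the drug, with overlapping groups (limma adjusted p = 0.52). The other riser, Rxra (log2 fold change 0.39, limma adjusted p = 0.026), named after its value was seen, lost its call in 4 fits that left out 1 sample: those without control replicate 2 and without sulfasalazine replicate 1, 2 or 3.

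Where a list above had none fallen or none risen by limma, the count was also 0 at an unadjusted p under 0.05 and 0 in a voom fit of the recovered reads.

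**Figure D4:**
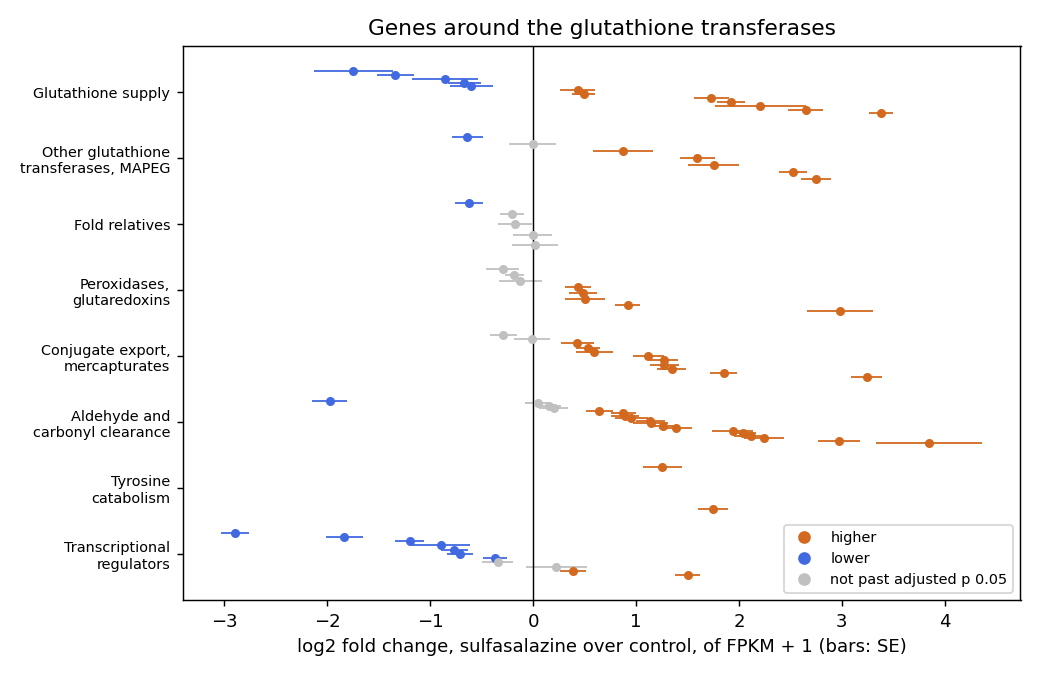
Log2 fold change (sulfasalazine minus control, log2(FPKM + 1) scale) with its SE for the tested genes of the lists around the glutathione transferases, grouped by role. Conjugate export and aldehyde clearance lie mostly to the right of 0, supply lies on both sides, and the regulators lie mostly to the left.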

How the data were processed

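RNA of 3 untreated and 3 sulfasalazine-treated MC3T3-E1 samples was sequenced as paired-end Illumina reads, per the labels' protocols, which name an RNA kit sold for plants and an rRNA depletion kit for bacteria. The submitters' processing notes name HTSeq 0.13.5, HISAT2 2.2.1, fastp 0.23.0, edgeR and the build mm39, without saying what each did. What the authors deposited is 1 table of 14003 genes with FPKM per sample, a library-size-adjusted signal that was used only to choose among possible read numbers, and their own log2 fold changes, p-values and adjusted p-values. Of 13982 genes matched to GENCODE M21, 13836 had its start and end, so coordinates are given as GRCm38.

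Groups and replicate numbers came from the sample titles. The main test was limma 3.58.1 (R 4.3.3) on log2(FPKM + 1), with an intensity trend, all 6 samples and no covariate, two-sided, Benjamini-Hochberg adjusted over the 10338 genes that reached 1 FPKM in 3 or more samples, threshold 0.05. It was tried on simulated data in which far fewer genes changed than here and the spread among samples was fixed. That trial does not show how the test performs on these data. In the low FPKM values the step of 1 read was visible: 100% of values came out as whole reads within 0.00001 reads, and 1389 genes, 3 of them transferases near 0 (Gstm7, Gstt2 and Hpgds), had more than 1 possible read number. The recovered reads gave the depth (15980935 to 21579133 per sample) and an added voom fit, which called 3889 genes higher and 3021 lower, against 3846 and 3032. No 2 samples of a group agreed within sampling noise (chi-square per degree of freedom 5.81 to 79.9). The genes and lists were chosen with earlier results of these data known, so their counts and medians are descriptions beside those of all genes. Named were every transferase in the table, up to 4 called genes of largest change per further list, Nfe2l2, Keap1 and Bach1, and the 3 nearest genes of the 2 transferases with the largest change; others are marked where named, and 1 gene that the rule names is not reported here. Other pseudocounts, filters, scalings, variance trends, a replicate block and leaving out each sample were tried (13 settings), and 2 were added after seeing the data (voom on recovered reads, and leaving out replicate 3 of both groups).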

Additional observations from a re-analysis of the deposited data

How the results depend on the processing

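Over 15 other settings, none of the 8 genes changed direction. The log2 fold change ranged from 5.79 to 6.89 for Gsta4, 4.95 to 6.13 for Gstm1, 3.70 to 4.82 for Gstm2, 2.23 to 2.78 for Gstp1, -1.04 to -0.76 for Gsto1, 0.24 to 0.54 for Gstz1, 4.23 to 4.56 for Mgst1 and 2.80 to 3.10 for Mgst3. Without a filter, 4274 of 14003 genes were called higher and 3135 lower, with more low genes tested. There 9 of 16 other glutathione transferases and 4 of 15 regulators were higher. Lower were 2 of 8 fold relatives, 3 of 12 supply genes and 1 of 16 export genes. With a filter of 5 FPKM, 3254 of 8781 genes were higher and 2725 lower. There 3 of 5 other transferases and 1 of 1 gene of the tyrosine list were called higher and 0 of 16 aldehyde genes lower, since fewer genes were tested. A pseudocount of 0.1 FPKM and the voom fit moved the median log2 fold change of the other transferases from 1.60 to 2.13 and 2.19. Median-of-ratios scaling moved the median of all genes from 0.08 to -0.04, turned the excess of higher calls over all genes (3422 higher and 3533 lower, and 3507 and 3549 under quantile normalization), and gave 2 fold relatives lower, 1 export gene lower, 3 peroxidases or glutaredoxins higher and 1 lower, and 1 regulator higher. Without replicate 3 of both groups, 1 fold relative was higher and 2 were lower. Leaving out 1 sample at a time gave 0 to 1 fold relatives higher, 3 to 5 supply genes lower, 0 to 1 export genes lower, 2 to 5 peroxidases or glutaredoxins higher and 1 to 2 regulators higher. With all transferases in the sum, Gstp1 held 53.1% with sulfasalazine. The cause of these shifts was not tested, beyond the filters. Same-numbered samples did not deviate together (correlations 0.0363, -0.194 and -0.174), and no control correlated best with its own number. With 3 samples per group, this cannot show whether same-numbered samples were handled together. With the replicate block, 3649 genes were higher and 2771 lower, and 3 peroxidases or glutaredoxins were higher. At 10 to 40 reads, depth limits the control levels of Gsta4, Gstm1 and Gstm2.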

Other observations

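The lowest control was the same sample for the 8 genes, while the highest control and the order of the treated samples varied among them. Control replicate 1 was the lowest control for 8 of the 8, while it was the lowest for 30.2% of all genes tested. Sulfasalazine replicate 3 was the lowest treated sample for 6 of the 8, while it was the lowest for 29.3% of all genes tested, and the exceptions were Gstm1 and Gstm2. Gstm2 was highest in that sample, at 43.3 FPKM. These counts have no test, since the 8 genes are not independent of each other.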
